A study of Mus musculus with 6 samples.

Results

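The posterior HoxA genes Hoxa9, Hoxa10, Hoxa11 and Hoxa13 were examined in mouse embryonic fibroblasts (MEFs) with 1 or both working copies of Nipbl. They are 4 of the 10 HoxA genes analysed here and 4 of the 38483 genes listed in the deposited tables. The genes were taken by name, and they had been picked because of their levels in these same WT and Nipbl+/- cultures, so their genotype differences are given as a description without a test. All 4 passed the filter on low counts. RNA depleted of ribosomal RNA was sequenced from 3 WT and 3 Nipbl+/- cultures of the CD1 strain, all at passage 3 and grown in DMEM with fetal bovine serum. The Nipbl+/- embryos carried a heterozygous knockout of Nipbl, and the WT embryos were their littermates. No treatment was applied to either group. By the study's methods, the cells came from mid-gestation littermates of 1 dam and from embryo tissue without limbs, brain and viscera. The cultures are therefore mixed cells of 1 litter, and p-values measure the spread between these cultures only.

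Hox genes encode homeodomain transcription factors that give cells their position along the body axis, and they stand in the cluster in the order in which they are used from head to tail. The genes at the posterior end of HoxA switch on last and mark the hindmost trunk, the outer limb and the urogenital tract, and cultured fibroblasts keep a Hox pattern that reflects where in the body they came from. NIPBL loads cohesin, the ring complex that holds DNA loops, and heterozygous loss of NIPBL causes Cornelia de Lange syndrome, in which the limbs are often malformed.

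The HoxA cluster lies on chromosome 6 (mm10), and its Hox genes are read from the minus strand, so the posterior genes have the higher coordinates. The 250 bases before the RefSeq transcript start of each member (RefSeq on GRCm38.p6, minus strand, 5′ to 3′) are shown because they cover the promoters of genes whose levels ranged from close to far apart between the genotypes. Capitals mark each CG dinucleotide. For Hoxa10, the outer of its RefSeq starts is shown. The windows are chr6:52227371-52227620 for Hoxa9, chr6:52240855-52241104 for Hoxa10, chr6:52245811-52246060 for Hoxa11 and chr6:52260881-52261130 for Hoxa13.
Hoxa9: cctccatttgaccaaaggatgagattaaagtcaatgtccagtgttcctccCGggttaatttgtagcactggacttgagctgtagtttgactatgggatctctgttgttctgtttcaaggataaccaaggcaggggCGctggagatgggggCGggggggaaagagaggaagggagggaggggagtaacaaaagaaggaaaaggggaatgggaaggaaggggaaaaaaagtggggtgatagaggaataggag
Hoxa10: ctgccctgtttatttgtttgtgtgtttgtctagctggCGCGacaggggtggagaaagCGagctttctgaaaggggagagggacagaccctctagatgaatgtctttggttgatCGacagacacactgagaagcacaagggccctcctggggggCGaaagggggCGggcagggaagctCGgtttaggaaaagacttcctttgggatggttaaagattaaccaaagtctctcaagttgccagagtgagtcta
Hoxa11: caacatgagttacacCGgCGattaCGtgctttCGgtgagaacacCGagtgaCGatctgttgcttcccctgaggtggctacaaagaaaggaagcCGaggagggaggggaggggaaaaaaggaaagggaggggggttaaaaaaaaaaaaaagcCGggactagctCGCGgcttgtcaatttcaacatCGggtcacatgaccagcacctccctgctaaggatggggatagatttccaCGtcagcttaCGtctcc
Hoxa13: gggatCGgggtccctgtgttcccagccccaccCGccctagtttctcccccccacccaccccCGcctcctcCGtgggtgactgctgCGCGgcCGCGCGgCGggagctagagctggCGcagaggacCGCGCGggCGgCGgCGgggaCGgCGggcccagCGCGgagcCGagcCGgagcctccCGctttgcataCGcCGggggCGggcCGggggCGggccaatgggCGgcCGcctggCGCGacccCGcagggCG
The CG dinucleotide, the site of DNA methylation, occurred 3 times before Hoxa9, 7 times before Hoxa10, 13 times before Hoxa11 and 35 times before Hoxa13. The median over 32851 RefSeq promoter windows of the same length was 6. The Hoxa13 window was 80.0% G and C, and 97.0% of the windows held fewer CG than it did. The inner RefSeq start of Hoxa10, at chr6:52234940-52235189, had 20. Windows on the anterior side of the cluster held 6 for Hoxa2, 18 for Hoxa3, 28 for Hoxa5, 24 for Hoxa6 and 7 for Hoxa7. The letters TTTAT, searched on either strand as a core that posterior Hox proteins bind, were found once before the outer Hoxa10 start and were not found in the Hoxa9, Hoxa11 and Hoxa13 windows, while 37.3% of all windows held them. These matches describe the letters of the windows only.

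The 6 libraries held 20307454 to 25990783 counts. The 19214 plus-strand genes were all at 0 in every culture in both counts and RPKM (reads scaled by gene length and library size), so the tables inform on minus-strand genes alone, of which 9061 were tested. All HoxA genes are on the minus strand, whereas the 12 posterior genes listed for HoxB, HoxC and HoxD are on the plus strand and could not be examined. Nipbl, which loads cohesin, was measured at 13.6, 15.4 and 15.0 RPKM in the WT cultures and at 11.1, 11.2 and 11.3 RPKM in the Nipbl+/- cultures. It fell by 0.43 on the log2 scale (SE 0.06, edgeR adjusted p = 0.0213). Of 17 fibroblast markers, 14 are on the plus strand and 3 were tested. Fn1, the fibroblast matrix protein fibronectin, stood at 1837 ± 186 RPKM in WT and 2047 ± 96.1 RPKM in Nipbl+/- (SD, n = 3 each). Col6a1 was lower in Nipbl+/-, at 130 ± 34.3 and 94.9 ± 17.0 RPKM (edgeR adjusted p = 0.227). Fap was higher, at 4.90 ± 1.52 and 7.87 ± 0.845 RPKM (edgeR adjusted p = 0.181). Over all tested genes, 177 passed the threshold of 0.05 (1.95%), of which 94 were higher (1.04%) and 83 lower (0.916%) in Nipbl+/- cultures, and the median log2 fold change was -0.01.

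The levels of the 4 members came apart in the order of the genes. Hoxa9 differed little between the genotypes, Hoxa10 was lower in the Nipbl+/- mean with overlapping cultures, and Hoxa11 and Hoxa13 were lower in every Nipbl+/- culture than in any WT culture. All Nipbl+/- cultures below all WT cultures was a pattern seen in 10.8% of all tested genes. Because the members were chosen on this contrast, nothing is read from that comparison. In bulk RNA, fewer cells that express a gene and less RNA per cell cannot be told apart.

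Hoxa9 (ENSMUSG00000038227, chr6:52223100-52231089) acts in blood stem cells and in patterning of the trunk and limb. It was measured at 3.15, 3.14 and 3.59 RPKM in WT cultures 1, 2 and 3 and at 3.39, 3.60 and 3.09 RPKM in Nipbl+/- cultures 1, 2 and 3. The groups overlapped fully. The log2 fold change from the counts was -0.01 (SE 0.09). Its WT cultures varied with a coefficient of variation of 5.23% in CPM (normalized counts scaled to library size), against 4.85% expected from counting alone.

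Hoxa10 (ENSMUSG00000000938, chr6:52231197-52240854), which shapes the lumbar vertebrae and the uterus, had the highest level per length of the 10 HoxA genes in WT. Its RPKM was 10.8, 8.18 and 11.6 in the WT cultures and 7.53, 8.51 and 7.55 in the Nipbl+/- cultures. WT culture 2 fell among the Nipbl+/- cultures, and the other WT cultures lay above them. The mean CPM was 35.0 ± 5.71 in WT and 26.2 ± 2.02 in Nipbl+/- (SD, n = 3 each), a log2 fold change of -0.41 (SE 0.12).

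Hoxa11 (ENSMUSG00000038210, chr6:52242108-52246214) patterns the forearm and, with its paralogs, the kidney. It was read at 5.74, 4.75 and 7.45 RPKM in the WT cultures and at 2.23, 3.55 and 2.92 RPKM in the Nipbl+/- cultures. The highest Nipbl+/- culture was below the lowest WT culture. The mean CPM was 16.8 ± 3.46 in WT and 7.94 ± 1.80 in Nipbl+/- (SD, n = 3 each), which is 2.12-fold apart, and the log2 fold change was -1.08 (SE 0.20). In GENCODE M21, 800 of the 2287 exonic bases of Hoxa11 (35.0%) are shared with its antisense RNA Hoxa11os, which the tables list at 0 on the plus strand. The deposited RPKM values imply a length near 2.78 kb for Hoxa11, so the share may differ in the gene model that was counted. Whether the counting used strand is not given in the sources used here, so reads from the antisense RNA cannot be told apart from those of Hoxa11.

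Hoxa13 (ENSMUSG00000038203, chr6:52257694-52260880) is the last gene of the cluster and is needed for the digits and the genital tubercle. Its counts were 148, 67 and 231 in the WT cultures and 10, 14 and 12 in the Nipbl+/- cultures. Each WT count was several times each Nipbl+/- count. The 95% exact Poisson interval covers counting error only. It was 51.9 to 85.1 for the lowest WT count and 7.65 to 23.5 for the highest Nipbl+/- count. In RPKM the values were 2.54, 1.13 and 4.24 in WT and 0.177, 0.211 and 0.231 in Nipbl+/-. The mean CPM was 6.80 ± 3.87 in WT and 0.519 ± 0.0624 in Nipbl+/- (SD, n = 3 each), which is 13.1-fold apart. The log2 fold change of -3.69 (SE 0.50) was the lowest of the 9061 tested genes, where Hoxa11 ranked 70, Hoxa10 624 and Hoxa9 4383. These ranks describe genes that were chosen on this contrast. Neither Hoxa10 nor Hoxa13 shares exonic bases with another annotated gene, and Hoxa9 shares 85 of 5580 bases with Mir196b on the same strand.

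**Figure D1:**
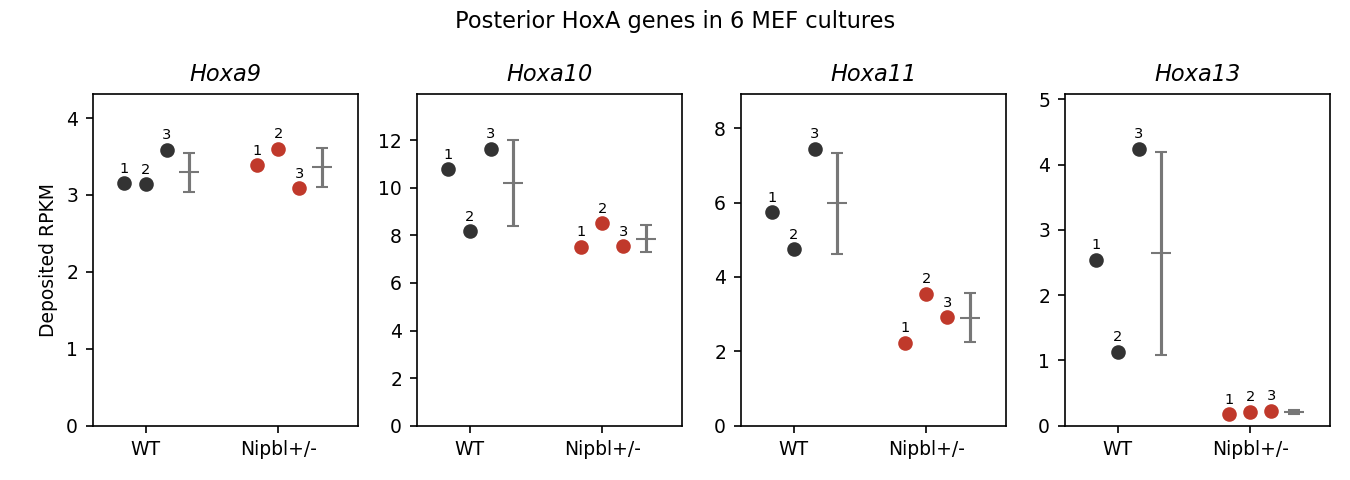
Deposited RPKM of Hoxa9, Hoxa10, Hoxa11 and Hoxa13 in each WT (black) and Nipbl+/- (red) MEF culture, with the culture number above each point and the mean ± SD (n = 3) in grey beside it; each panel has its own axis from 0. The groups overlap for Hoxa9 and Hoxa10, and all Nipbl+/- cultures lie below all WT cultures for Hoxa11 and for Hoxa13, where WT ranges from 1.13 to 4.24 RPKM and Nipbl+/- from 0.177 to 0.231 RPKM.

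The WT cultures did not share one posterior HoxA level. WT culture 3 was the highest and WT culture 2 the lowest in RPKM of all 4 members, by a margin within counting noise in the case of Hoxa9. Among the 4 members, the spread grew from Hoxa9 to Hoxa13. The coefficient of variation of CPM among WT cultures was 5.23% for Hoxa9, 16.3% for Hoxa10, 20.5% for Hoxa11 and 56.9% for Hoxa13, where counting alone gives 4.85%, 3.61%, 5.20% and 8.20%. Across Hoxa2 to Hoxa7 it ran from 9.08% in Hoxa3 to 20.4% in Hoxa4, above Hoxa9 throughout, so the whole cluster showed no such rise. Counting alone gives 8.62% for Hoxa3 and 15.8% for Hoxa4. For Hoxa13 the highest WT culture was 3.59 times the lowest in CPM. Its SD of log2 CPM among WT cultures was above that of 99.1% of tested genes. The Nipbl+/- cultures were closer to each other for Hoxa13, with a coefficient of variation of 12.0%, below the 28.9% that counting alone gives at 10 to 14 counts. A spread between Nipbl+/- cultures smaller than that was not detectable at this depth.

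Ordered by RPKM, the WT means were 10.2 ± 1.80 for Hoxa10, 5.98 ± 1.37 for Hoxa11, 3.30 ± 0.254 for Hoxa9 and 2.64 ± 1.56 for Hoxa13 (SD, n = 3). The ranges of Hoxa9 and Hoxa13 overlapped, and no other neighbours in that order did. In Nipbl+/- cultures the order was Hoxa10 at 7.86 ± 0.561, Hoxa9 at 3.36 ± 0.257, Hoxa11 at 2.90 ± 0.660 and Hoxa13 at 0.206 ± 0.0274 RPKM (SD, n = 3), with overlapping ranges for Hoxa9 and Hoxa11 alone. Against the mean RPKM of all genes with a count, Hoxa13 stood above 52.4% of them in WT and 29.2% in Nipbl+/-. Hoxa11 stood above 62.6% and 53.3%, Hoxa10 above 71.0% and 65.9%, and Hoxa9 above 55.0% in both.

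The sex-linked RNAs divided the cultures in a way that cut across genotype. Ddx3y, from the Y chromosome, led in WT cultures 1 and 2 and Nipbl+/- culture 3, and Xist, from the inactive X, led in WT culture 3 and Nipbl+/- cultures 1 and 2. Among the Ddx3y cultures Hoxa13 was at 6.71 and 2.98 CPM in WT and 0.573 CPM in Nipbl+/-. Among the Xist cultures it was at 10.7 CPM in WT and 0.451 and 0.535 CPM in Nipbl+/-. The genotypes were thus separated within each set, although each holds only 1 culture of a genotype and allows no test. With the sex-linked RNA as a covariate, added after the data were seen, the log2 fold changes were -3.94 for Hoxa13, -1.15 for Hoxa11, -0.47 for Hoxa10 and -0.07 for Hoxa9.

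The anterior genes Hoxa2 to Hoxa7, which pattern the hindbrain, neck and thorax, lay on the other side of 0. Of these 6 genes, 5 rose past the threshold in Nipbl+/- cultures and none fell, against 1.04% of all tested genes called higher. All 6 had every Nipbl+/- culture above every WT culture, as did 12.0% of tested genes. Their median log2 fold change was 0.79, against -0.01 for all tested genes. These genes were also known from earlier results to differ here, so their count is not independent evidence.

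Hoxa5, which acts in lung and neck development, went from 6.16 ± 1.06 to 11.8 ± 1.07 RPKM (SD, n = 3 each), a log2 fold change of 0.90 (SE 0.13, edgeR adjusted p = 0.0232). Hoxa7, the nearest expressed neighbour of Hoxa9 on the anterior side and a thoracic patterning gene, went from 6.39 ± 0.711 to 10.6 ± 0.545 RPKM, with a log2 fold change of 0.68 (SE 0.09, adjusted p = 0.0209). The other called genes were Hoxa2 at 1.07, Hoxa6 at 0.89 and Hoxa3 at 0.64 on the log2 scale, with edgeR adjusted p = 0.0422, 0.0372 and 0.0393. Hoxa4 was at 0.56 on that scale and did not pass (edgeR adjusted p = 0.316). In GENCODE M21, Hoxa7 shares 20.4% of its exonic bases with the antisense RNA Hoxaas3, Hoxa4 shares 255 of 1594 bases with the antisense Gm29430, and Hoxa3 shares 4.86% to 8.36% with each of 4 antisense RNAs. Hoxa2 and Hoxa3 also share bases with Gm28308 on their own strand, so reads of these 4 genes may be mixed with those of their partners. The deposited RPKM values imply lengths near 2.51 kb for Hoxa2 and 7.07 kb for Hoxa3. GENCODE M21 gives 1775 and 6014 exonic bases, so their overlaps may differ in the gene models that were counted. The count of 5 rested on all the cultures. It was 0 when WT culture 1, Nipbl+/- culture 1 or Nipbl+/- culture 2 was left out, 2 without WT culture 3 or Nipbl+/- culture 3, and 4 without WT culture 2, while every one of the 6 log2 fold changes remained above 0. With the sex-linked RNA as a covariate 3 genes were called, and Hoxa2 and Hoxa6 no longer passed (edgeR adjusted p = 0.0583 and 0.0511).

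**Figure D2:**
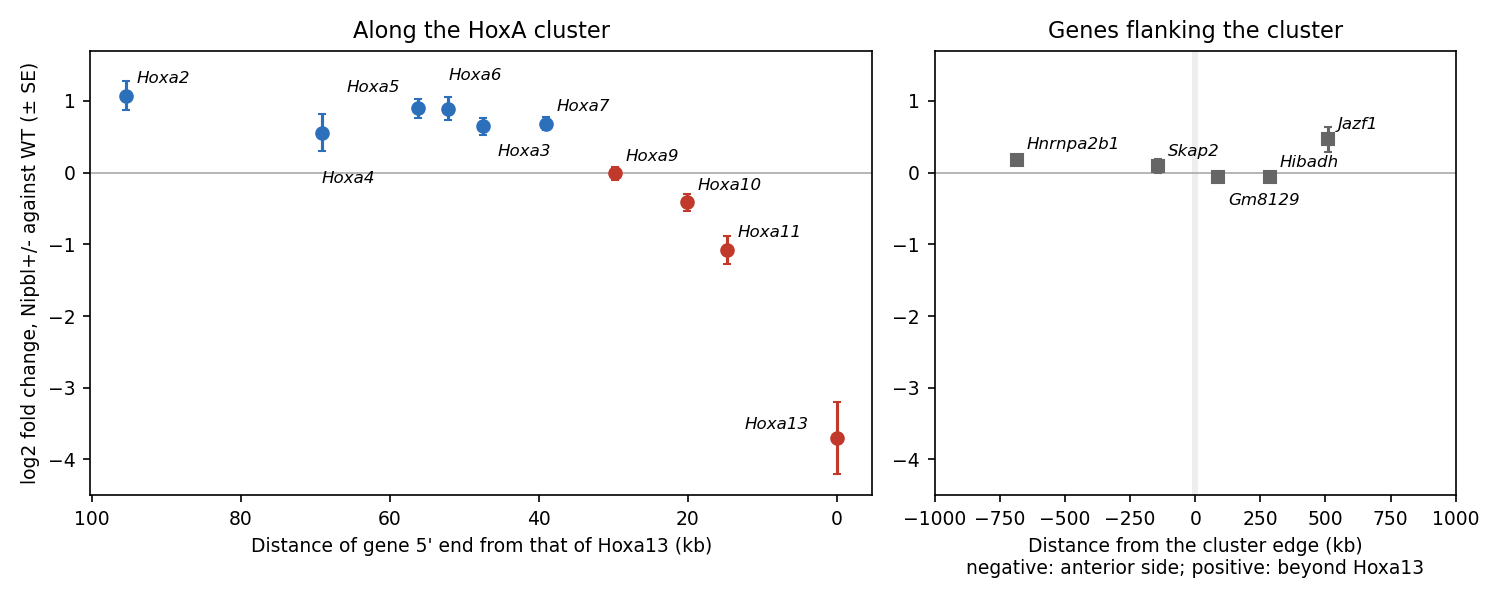
Log2 fold change (Nipbl+/- against WT, ± SE from the edgeR fit) of 10 HoxA genes by the distance in kb of each gene's 5′ end from that of Hoxa13 (left; posterior genes red, anterior blue) and of the 5 tested genes within 1 Mb of the cluster by distance from its edge (right). Hoxa2 to Hoxa7 lie above 0, Hoxa9 is at -0.01, and Hoxa10, Hoxa11 and Hoxa13 lie at -0.41, -1.08 and -3.69. Each HoxA gene is placed by its outermost listed start.

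Measured from the 5′ end of Hoxa13, the 5′ ends lay at 14.7 kb for Hoxa11, 20.0 kb for Hoxa10, 29.8 kb for Hoxa9 and 39.0 kb for Hoxa7. Each 5′ end here is the outermost listed start of the gene, and the RefSeq starts of Hoxa7, Hoxa9 and Hoxa11 lie further in. The side of 0 thus changed between the 5′ ends of Hoxa7 and Hoxa10, with Hoxa9 between them at -0.01. Outside the cluster, 23 genes lie within 1 Mb, of which 10 are on the plus strand and 5 could be tested. By edgeR none of the 5 passed the adjusted threshold, and 2 of them, Hnrnpa2b1 and Jazf1, had an unadjusted p under 0.05. Of all tested genes, 16.9% had an unadjusted p that low. In DESeq2 none of them passed either. Hnrnpa2b1, an RNA-binding protein gene, was at 81.7 ± 3.13 RPKM in WT and 95.6 ± 3.42 RPKM in Nipbl+/- (log2 fold change 0.18, SE 0.06, edgeR adjusted p = 0.141). The processed pseudogene Gm8129, whose reads may come from a near-identical copy elsewhere, had a log2 fold change of -0.07 (edgeR adjusted p = 0.636). The long noncoding RNA Hottip (Gm15053 in the tables) and Evx1, which flank Hoxa13 on its far side, belong to that strand too and have no reads in the tables. Of 8 other genes inside the cluster, 6 are on the plus strand. The microRNA gene Mir196b, within the span of Hoxa9, had 1 to 2 counts in a culture.

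Because the anterior and posterior genes lay on opposite sides of 0, the makeup of HoxA RNA differed more than its amount. The RPKM values of the 10 genes summed to 37.7, 35.9 and 46.0 in the WT cultures and 47.8, 47.1 and 43.4 in the Nipbl+/- cultures, and these ranges overlapped. The 4 posterior genes made up 59.0%, 48.0% and 58.5% of that sum in WT and 27.8%, 33.7% and 31.8% in Nipbl+/-. Every WT share was above every Nipbl+/- share. The posterior and anterior genes were both known beforehand to differ in these cultures, so this separation is not independent evidence. Hoxa13 alone accounted for 6.75%, 3.16% and 9.23% in WT and for 0.370%, 0.448% and 0.533% in Nipbl+/-.

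Ratios to Hoxa9, the member that differed least, do not depend on how libraries are scaled. In RPKM, Hoxa13 to Hoxa9 was 0.807, 0.361 and 1.18 in WT and 0.0522, 0.0586 and 0.0748 in Nipbl+/-. The ratio of Hoxa11 to Hoxa9 was 1.82, 1.51 and 2.08 in WT and 0.658, 0.986 and 0.946 in Nipbl+/-. All WT cultures had more Hoxa11 than Hoxa9 per length, and all Nipbl+/- cultures had less. This order rests on the gene lengths used. In counts, Hoxa11 was at 363, 305 and 441 in the WT cultures, against 414, 419 and 441 for Hoxa9. Hoxa10 to Hoxa9 was 3.42, 2.60 and 3.24 against 2.22, 2.36 and 2.45. The groups overlapped in Hoxa10 level but not in this ratio. Both genes were chosen on this contrast, and Hoxa9 for differing least in these same cultures, so nothing is read from that separation. Hoxa7 to Hoxa9 ran the other way, from 1.78, 2.09 and 1.95 in WT to 3.30, 2.84 and 3.32 in Nipbl+/-.

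**Figure D3:**
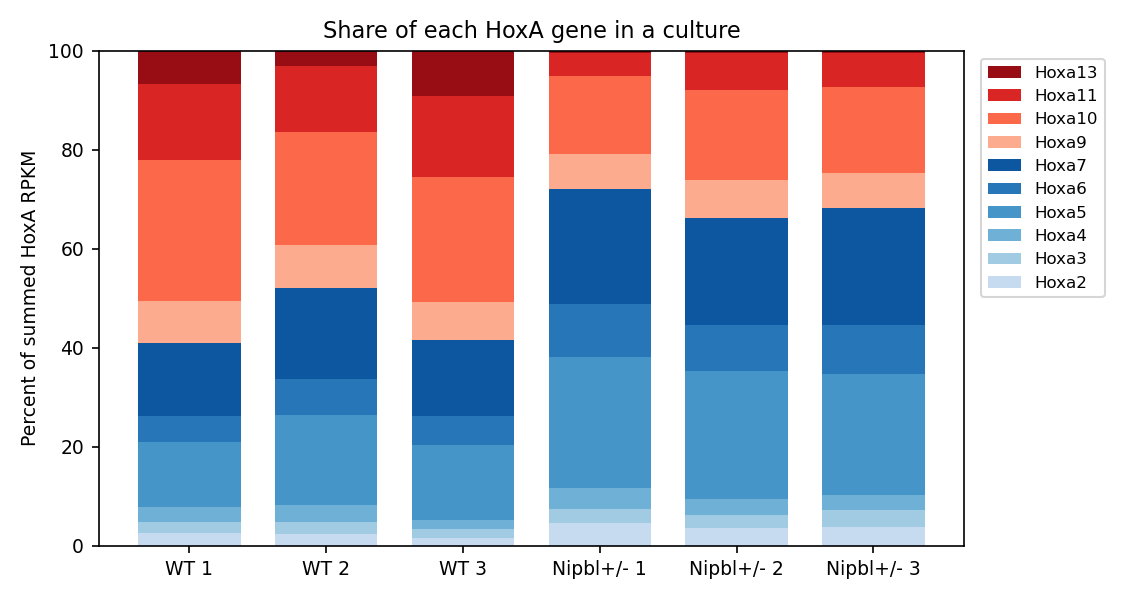
Share of each of 10 HoxA genes in their summed RPKM, as stacked bars from 0 to 100%, for 3 WT and 3 Nipbl+/- cultures. The 4 posterior genes take 48.0% to 59.0% of a WT bar and 27.8% to 33.7% of a Nipbl+/- bar, and Hoxa13 is at most 0.533% in a Nipbl+/- culture.

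Hox proteins bind DNA with Pbx, Meis and Pknox partners. Of 9 such cofactor genes, 5 could be tested, 2 rose and none fell (1.04% of all genes were called higher). Meis2 went from 4.30 ± 0.494 to 6.91 ± 0.998 RPKM (SD, n = 3 each; log2 fold change 0.64, SE 0.10, edgeR adjusted p = 0.0252), and Meis1, whose product partners Hoxa9 in blood cells, from 3.40 ± 0.414 to 5.28 ± 0.490 RPKM (0.59, SE 0.10, edgeR adjusted p = 0.0330). The median over the 5 was 0.24. Both calls were lost in edgeR when WT culture 1 or any one Nipbl+/- culture was left out, and 1 remained without WT culture 3.

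Polycomb complexes keep Hox genes silent, trithorax complexes keep them on, and CTCF and cohesin divide the clusters into domains. Of 52 such regulator genes in the tables, 27 were tested, and in edgeR 1 rose and 1, Nipbl itself, fell, against 1.04% and 0.916% of all genes. Rad21, the cohesin ring subunit, went from 28.6 ± 0.582 to 35.1 ± 0.970 RPKM (SD, n = 3 each), a log2 fold change of 0.25 (SE 0.05, edgeR adjusted p = 0.0467). The list's median was 0.07. Without WT culture 1, Nipbl+/- culture 1 or Nipbl+/- culture 2 neither gene was called, and without WT culture 3 or Nipbl+/- culture 3 only Nipbl was. Rad21 was also not called with the sex-linked RNA as a covariate (edgeR adjusted p = 0.0554). Among the Polycomb genes, Ezh2, the H3 methyltransferase, had a log2 fold change of 0.26 (edgeR adjusted p = 0.226).

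Genes of the limb bud, genital tubercle and tail bud were listed because Hoxa11 and Hoxa13 act there. Of 59, 28 are on the plus strand and 21 were tested, and 1 rose and 1 fell (1.04% and 0.916% of all genes). Hhip, an inhibitor that binds Hedgehog ligands, went from 0.507 ± 0.0775 to 0.143 ± 0.0327 RPKM (SD, n = 3 each; log2 fold change -1.87, SE 0.26, edgeR adjusted p = 0.0224). Alx1, a craniofacial homeobox gene, went from 1.78 ± 0.232 to 3.57 ± 0.571 RPKM (0.96, SE 0.16, edgeR adjusted p = 0.0288). The list's median log2 fold change was -0.40, with 15 genes below 0 and 6 above, against -0.01 for all tested genes. DESeq2 called 7 of the list, 6 of them lower. In edgeR 4 were lower without WT culture 2, 1 was lower without WT culture 3 or Nipbl+/- culture 3, and none was called in either direction without WT culture 1, Nipbl+/- culture 1 or Nipbl+/- culture 2.

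**Figure D4:**
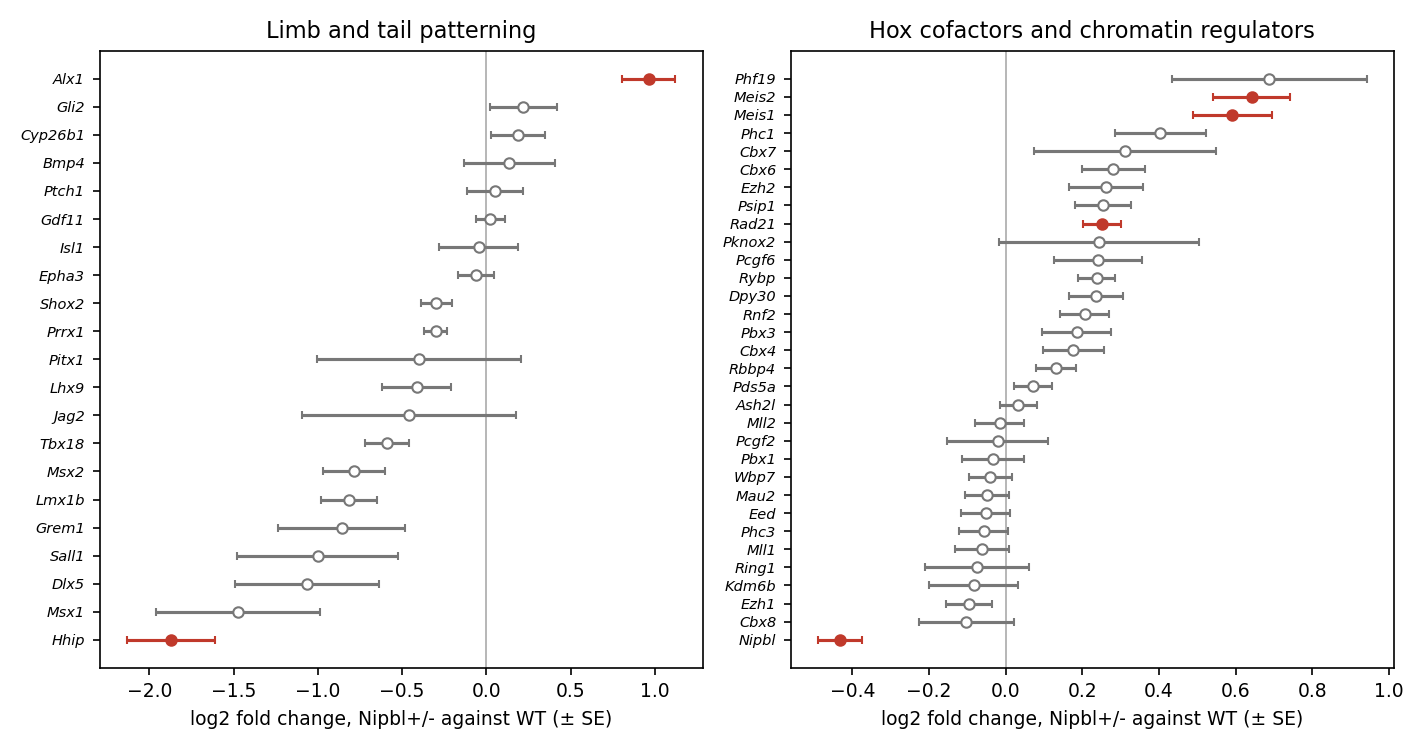
Log2 fold change (Nipbl+/- against WT, ± SE) of each tested gene of the limb and tail list (left) and of the Hox cofactor and chromatin regulator lists (right), with filled red points for genes past the adjusted threshold of 0.05 in edgeR. Hhip at -1.87 and Alx1 at 0.96 are the called genes on the left, and Meis2, Meis1, Rad21 and Nipbl those on the right.

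The genes whose log2 CPM profile over the 6 cultures lay nearest to each member were sought among 8343 genes, each centred on its own mean. Likeness is the root mean square distance in log2 units and is a description over 6 cultures of 2 genotypes. The neighbours were picked for their likeness, so a shared order of cultures follows in part from the search. Nearest to Hoxa13 were Prg4 at 0.72, Nrn1 at 0.81 and Aldh1a7 at 0.83. Prg4, which encodes the joint lubricant lubricin, was at 2.13, 0.534 and 3.01 CPM in WT and 0.270, 0.420 and 0.286 CPM in Nipbl+/-. Its values in WT culture 2 and in Nipbl+/- rest on few counts, since Hoxa13 at 0.535 CPM in Nipbl+/- culture 2 had 14. Prg4 shared with Hoxa13 the order of the WT cultures. Nrn1, a neurite growth factor gene, and Aldh1a7, an aldehyde dehydrogenase gene, were highest in WT culture 1 instead. Hoxa11 was only the 27th nearest to Hoxa13, at 1.19.

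Hoxa11 had closer matches. St8sia2, a polysialyltransferase gene, lay at 0.08, Slc35g2 at 0.14 and Fam84a at 0.19, and Hoxa10 ranked 126. St8sia2 was at 3.13, 2.67 and 3.94 CPM in WT and 1.13, 1.95 and 1.29 CPM in Nipbl+/-, in the same order of cultures as Hoxa11 within each genotype. The nearest to Hoxa10 were Map3k14 at 0.04, Dcxr at 0.06 and Svop at 0.07. For Hoxa9, which differed little between cultures, they were Slc3a2 at 0.02, 2900097C17Rik at 0.03 and Gm13740 at 0.03.

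**Figure D5:**
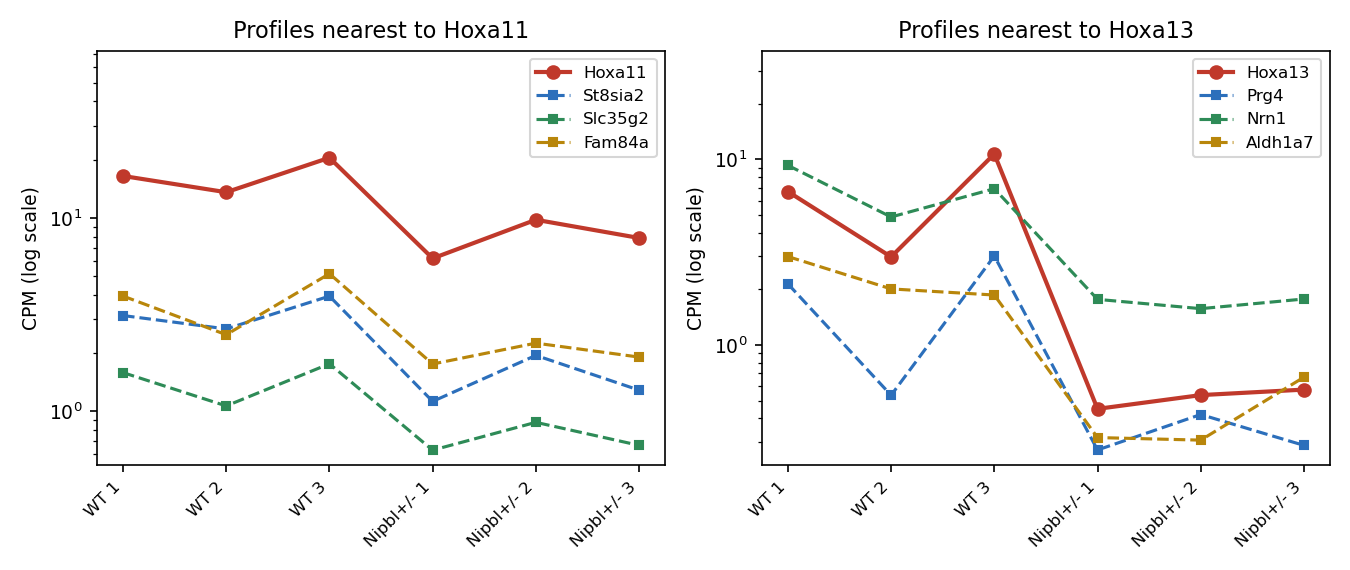
CPM on a log axis in each WT and Nipbl+/- culture of Hoxa11 with its 3 nearest profiles (left) and Hoxa13 with its 3 nearest (right); lines join the points of a gene and imply no order of cultures. St8sia2, Slc35g2 and Fam84a run nearly parallel to Hoxa11, while Prg4, Nrn1 and Aldh1a7 fall less than Hoxa13 from WT to Nipbl+/-.

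Markers of other cells were read beside the HoxA values. All 5 tested macrophage markers had log2 fold changes above 0 with a median of 1.04. By edgeR none passed the adjusted threshold and all 5 had an unadjusted p under 0.05, as had 16.9% of all tested genes. The summed macrophage RPKM was 32.9 to 43.5 in WT and 54.7 to 106 in Nipbl+/-, with Lyz2, a lysozyme gene, at 28.2 ± 4.67 and 59.3 ± 23.6 RPKM (SD, n = 3 each). Their part in the HoxA values was not tested. Endothelial markers summed to 1.82 to 2.32 RPKM in WT and 1.66 to 2.32 RPKM in Nipbl+/-, and muscle markers to 0.291 to 0.474 and 0.277 to 0.385 RPKM. Cartilage RNA, which is Col2a1 alone on the minus strand, spanned 18.7 to 73.6 RPKM in WT and 41.5 to 51.5 RPKM in Nipbl+/-. Epithelial markers summed to 0.188 to 0.270 RPKM in WT and 0.546 to 1.40 RPKM in Nipbl+/-. Neural RNA, which is Sox10 alone on the minus strand, was at most 0.123 RPKM in any culture. Plus-strand genes at 0 were 4 of 9 macrophage, 4 of 7 endothelial, 3 of 6 muscle and 3 of 6 epithelial markers. The sums do not cover these genes.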

How the data were processed

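The MEF cultures, 3 WT and 3 Nipbl+/-, were profiled by RNA-seq, each placed in its genotype by the labels. The authors aligned reads with TopHat2 2.0.10 to mm10 with an Ensembl annotation. They deposited raw counts and RPKM values for each gene and culture. The counting tool and its use of strand are not given in the sources used here. Totals were 20307454 to 25990783 counts, and the spread between replicates exceeded counting noise.

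After filterByExpr with a minimum count of 10, the 9061 genes left were scaled by TMM and fitted in edgeR 4.0.16 (R 4.3.3) by its quasi-likelihood method, with Benjamini-Hochberg adjustment (threshold 0.05) and no covariates. The standard error is the absolute log2 fold change over the square root of F. The fits were tested on simulated data. CPM is TMM-normalized, with a prior count of 2 on the log2 scale, and RPKM is as deposited. Groups overlap or not in CPM.

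Named genes are the HoxA genes, Nipbl, of each list the called members (up to 4 by size) or, with none, the 2 highest in RPKM, the 3 nearest profiles of each member, Xist and Ddx3y. The others were named after their values were seen. Some items are not reported here. The members and lists were chosen with earlier results of these data known. Alternatives were DESeq2 1.42.0, its size factors in edgeR, library size alone, no filter, a replicate block, each culture left out, the ratio of mean RPKM with and without a pseudocount of 0.1, and the sex-linked RNA as a covariate.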

Additional observations from a re-analysis of the deposited data

How the results depend on the processing

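The 4 members kept their values under every alternative to within the spread between replicates. With 1 culture left out, the log2 fold change ranged from -4.05 to -3.21 for Hoxa13, from -1.26 to -0.91 for Hoxa11, from -0.54 to -0.33 for Hoxa10 and from -0.07 to 0.06 for Hoxa9. The ratio of mean RPKM gave -3.68 for Hoxa13, and -3.16 with a pseudocount of 0.1. Hoxa9 crossed 0 in some of these fits.

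Counts of called genes moved more. Over all genes, 94 higher and 83 lower became 237 and 212 in DESeq2, 173 and 152 without the filter and 142 and 70 with library size alone, which moved the median of all genes to 0.03. With 1 culture left out they ranged from 1 to 132 higher and from 2 to 136 lower, the lone pair of a genotype being assumed to vary like the other group. Such counts ranged from 0 to 4 for the anterior HoxA genes, from 0 to 2 for the cofactors, from 0 to 2 for the chromatin regulators and from 0 to 5 for the limb and tail genes. DESeq2 called 7 and the unfiltered fit 6 limb and tail genes. DESeq2 and library size alone each called 3 chromatin regulators. With the sex-linked RNA as a covariate, 3 anterior HoxA genes and 1 chromatin regulator were called. No flanking gene was called in any fit. Among results for single named genes, 110 kept their side of the threshold, 58 no longer passed it and none reversed. The cause of these shifts was not tested.

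The replicate numbers did not pair the cultures, since deviations of same-numbered cultures correlated between -0.16 and -0.04. With the replicate block, 34 genes were higher and 52 lower, among them 0 anterior HoxA genes, 1 chromatin regulator and 1 limb and tail gene, and the members' log2 fold changes were -0.01, -0.40, -1.08 and -3.56. At 10 to 14 counts of Hoxa13 in a Nipbl+/- culture, depth limits that level.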
